A study of Mus musculus with 13 samples.

Results

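This account concerns 10 genes of heme breakdown and iron handling in cultured mouse astrocytes given 1 of 3 small-molecule inhibitors. The members are Hmox1, Blvra and Blvrb of heme breakdown, the ferritin genes Fth1 and Ftl1, the import and transfer genes Tfrc, Slc48a1 and Slc11a1, and the export genes Slc40a1 and Cp. They were chosen by name, with the values of the authors' deposited tables already known, so those values are a description here and no test is drawn from them. Of the 10 genes 8 were in at least 1 table, among 1592 genes in the tables in all, and Slc48a1 and Cp were in none.

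The cells were primary cultures made from the retinas and optic nerves of C57BL/6 mice (wild type, postnatal day 1 to 3), and every group, vehicle included, grew in medium with fetal bovine serum. The groups were 3 libraries given HLM006474, an inhibitor of E2F transcription factors, 3 given Ro5-3335, an inhibitor of RUNX1 and its partner CBFB, 3 given SB431542, which blocks the type I receptor kinases for TGF-beta and activin, and 4 given vehicle, all for 24 h. Doses are not stated in the labels. Separate animals or platings behind the samples of 1 group are not stated, so the authors' p-values and errors cover only the spread among these samples, which can be technical.

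Each deposited table sets 1 inhibitor against vehicle. It holds only genes with an adjusted p under 0.05 and an absolute log2 fold change of at least 0.58, and such genes are called listed. Fold changes are log2 values, each with the standard error of the authors' fit. The mean count is the authors' mean over libraries of counts divided by size factors. Values of single samples and the depth of the libraries were not analysed here. The astrocyte genes Kcnj10 and Fabp7 had mean counts of 23893 and 18965, and these were the 2 of 14 astrocyte markers in at least 1 table, so the levels of the other astrocyte markers are not known here. The cultures also held transcripts of other cells, with a mean count of 24249 for the macrophage gene Lyz2. In at least 1 table were 8 of 14 microglia and macrophage markers and 8 of 12 oligodendrocyte lineage markers. So were 3 of 10 neuron markers and 2 of 10 endothelial and pericyte markers, and none of 7 red blood cell markers was. A marker enters a table only by changing under an inhibitor, so these counts do not show which cells were present or absent. The matching share of all genes was not computed, and nothing is read from the counts.

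As background, heme oxygenase 1, the product of Hmox1, opens the heme ring and releases iron, carbon monoxide and biliverdin. That biliverdin is reduced to bilirubin mainly by Blvra in adult tissue, while Blvrb is a second biliverdin reductase that also reduces flavins. The freed iron is stored in ferritin, a shell built of heavy (Fth1) and light (Ftl1) chains, or leaves the cell through ferroportin (Slc40a1), helped by the ferroxidase ceruloplasmin (Cp). In brain, astrocytes carry ceruloplasmin on their surface, and microglia and macrophages take up heme and iron from cell debris. Cells match iron import to storage after transcription: when iron is scarce, iron regulatory proteins bind a hairpin called the iron-responsive element. In the 5′ UTR of ferritin and ferroportin mRNA that binding blocks translation, and in the 3′ UTR of transferrin receptor mRNA it protects the transcript from decay. Transcription of Hmox1, the ferritins and Slc40a1 is also known to respond to NRF2 and to its heme-sensing competitor BACH1.

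The hairpins of the members are shown because they set the genes of storage and export apart from the import gene Tfrc, although all were higher under the same inhibitor. They were found in GENCODE M21 transcripts (GRCm38) as the loop CAGTGN, with N not G, between arms of 5 paired bases and with a C before the first arm. Capitals mark the loop. Fth1 and Ftl1 hold 1 each in the 5′ UTR at chr19:9982733-9982759 (plus strand) and chr7:45459780-45459806 (minus strand), Slc40a1 holds 1 in the 5′ UTR at chr1:45925466-45925492 (minus strand), and Tfrc holds 4 in the 3′ UTR, from chr16:32631220-32631246 to chr16:32631711-32631737 (plus strand).
Fth1: tcctgcttcaaCAGTGCttgaacggaa
Ftl1: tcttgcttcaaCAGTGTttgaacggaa
Slc40a1: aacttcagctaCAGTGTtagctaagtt
Tfrc, the first: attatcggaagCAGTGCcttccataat
Tfrc, the second: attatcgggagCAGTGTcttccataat
Tfrc, the third: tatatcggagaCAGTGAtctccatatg
Tfrc, the fourth: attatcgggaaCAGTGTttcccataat
The ferritin arms are the same in both chains, TTCAA and TTGAA. The sites shown are from 1 transcript of each gene. The pattern occurs in 4 of 5 coding transcripts of Fth1, 1 of 2 of Ftl1, 1 of 4 of Slc40a1 and 1 of 3 of Tfrc. It occurs in 0.725% of 58797 coding transcripts and in no coding transcript of Hmox1, Blvra, Blvrb, Slc48a1, Slc11a1 or Cp. A match is a description of the letters and not a measured binding site. The tables measure RNA, so translation of these transcripts was not measured.

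Under HLM006474 the members listed higher came from heme breakdown, ferritin, iron import and iron export, while Blvra, Slc48a1 and Cp were not listed. Of the 10 members 7 were listed, all higher, beside 1.42% of the 15169 genes tested that were listed higher, 4.22% listed lower and 5.64% listed in all. SB431542 listed 4 of the 10, all higher, beside 2.29% of 15169 tested genes listed higher, 2.64% lower and 4.93% in all. Ro5-3335 listed none of the 10, beside 0.605% of 13561 tested genes higher, 2.32% lower and 2.93% in all. Because the members were picked from these contrasts, nothing is read from the distance to those shares. The median log2 fold change of the listed members was 1.59 for HLM006474, against 0.80 over all genes listed higher there. For SB431542 it was 0.77, against 0.93 over all genes listed higher. The members were picked with these fold changes known, so nothing is read from the distance between the medians either. The comparisons share the 4 vehicle libraries.

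**Figure D1:**
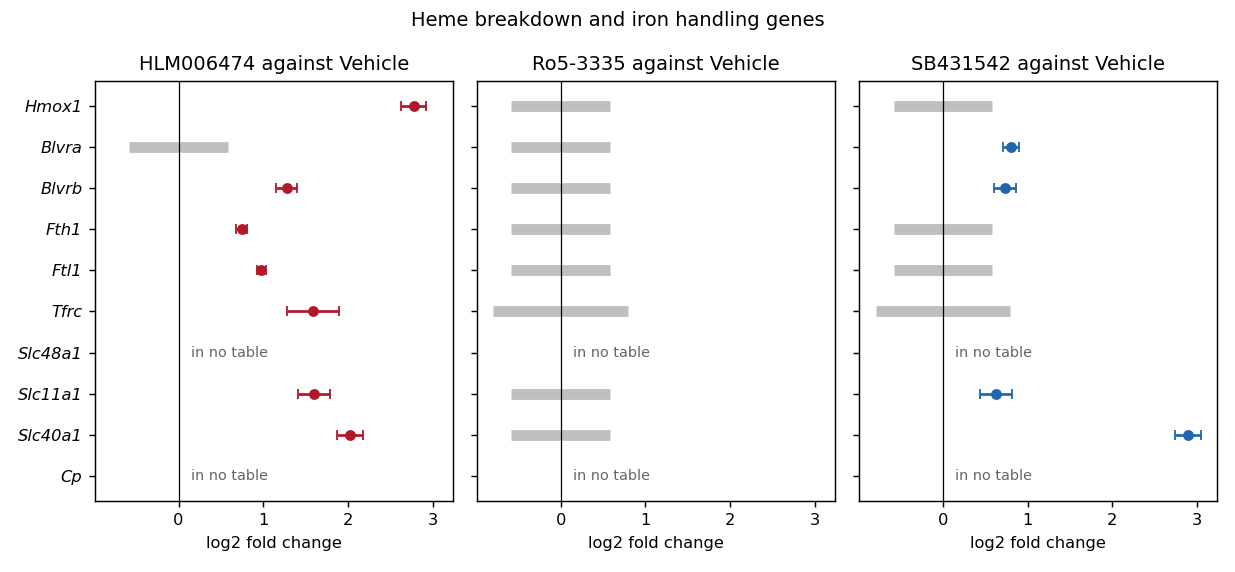
Log2 fold change against vehicle of the 10 genes, 1 panel for each inhibitor (3 libraries each, against 4 vehicle libraries). Points are the authors' values with their standard errors. Grey bars mark where the value must lie if the gene was tested but not listed, within 0.58 of 0 for all but Tfrc. The 7 points for HLM006474 and the 4 for SB431542 all lie above 0, and Ro5-3335 has none.

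A gene outside a table lies under its limit on the fold or on p, if it entered the test there. For members listed elsewhere this places the log2 fold change within 0.58 of 0, and for Tfrc, whose standard error is larger, within 0.79 of 0. The bound takes the standard error from the table that lists the gene. With the mean count and the fold changes, an estimate of each group's mean can be solved, taking all 13 libraries into the mean and no change where a gene was outside a table. The ranges given with these estimates come from setting such genes at their limits, and hold no sampling error.

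Hmox1 (chromosome 8, 75093621 to 75100589, GRCm38) had the largest fold change of the members under HLM006474, 2.77 ± 0.15 in the authors' deposited table, a 6.83-fold rise. Its estimated mean normalised count was 26976 under HLM006474 (range 24581 to 28856) and 3948 in vehicle (3598 to 4223). It ranked 5 of 216 higher genes by fold change, and of the 8 higher genes with a larger mean count none had a larger fold. Its mean count of 9262, not corrected for transcript length, ranked 25 of the 1592 genes in the tables. In the other inhibitors' tables Hmox1 was absent, which leaves its log2 fold change at least 2.19 below that under HLM006474 if it was tested there. This distance is between estimates, with no sampling error counted.

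The biliverdin reductases differed from Hmox1 in which tables listed them. Blvrb, which also reduces flavins, stood at 1.28 ± 0.13 under HLM006474 and 0.74 ± 0.13 under SB431542 in the authors' deposited tables. Its estimated means were 780 under HLM006474, 537 under SB431542 and 322 in vehicle. Blvra, the main biliverdin reductase of adult tissue, was listed for SB431542 alone, at 0.81 ± 0.095 in the authors' deposited table, with estimated means of 647 under SB431542 (range 542 to 744) and 370 in vehicle (310 to 426). SB431542 thus had both reductases higher and Hmox1 outside its table, and HLM006474 had Hmox1 and Blvrb higher and Blvra outside its table. Blvra under HLM006474 lay within 0.58 of 0 if tested, at least 0.23 below its value under SB431542. That gap is between estimates and holds no sampling error.

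**Figure D2:**
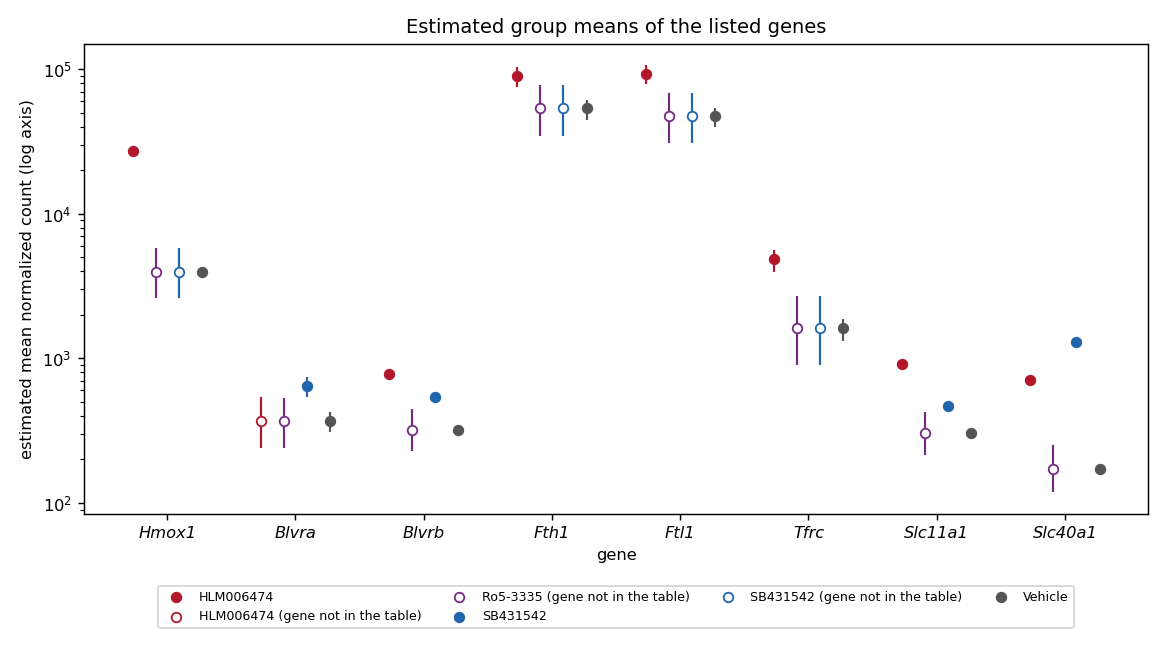
Estimated mean normalised count (log axis) of the 8 listed genes under each inhibitor (3 libraries) and vehicle (4 libraries). Filled points rest on a listed fold change or are vehicle, open points assume no change for a gene outside that table, and lines show the range when such genes are set at their limits. Hmox1 lies at 26976 under HLM006474 and 3948 in vehicle, and Slc40a1 is higher under SB431542 than under HLM006474.

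The ferritin pair was higher under HLM006474 by a smaller fold than Hmox1 and from a high level. Ftl1, the light chain that aids mineral formation (chromosome 7), stood at 0.97 ± 0.054, and Fth1, the heavy chain with the ferroxidase centre (chromosome 19), at 0.74 ± 0.067, in the authors' deposited table. Their mean counts, 57910 for Ftl1 and 61897 for Fth1, were the third and the second largest of the 1592 genes in the tables, without correction for transcript length. Per kilobase of transcript, the estimated means under HLM006474 were 96163 for Ftl1 and 96519 for Fth1. In vehicle they were 48922 for Ftl1 and 57660 for Fth1. These means assume no change under the other inhibitors, and each uses the length of 1 transcript. Before division by length, the ranges under HLM006474 were 78429 to 106383 for Ftl1 and 74861 to 103335 for Fth1. In vehicle they were 39900 to 54122 for Ftl1 and 44722 to 61732 for Fth1. The ranges of the chains overlap in each group, so nothing is read from the distance between their means. On the log2 scale the fold change of Ftl1 exceeded that of Fth1 by 0.23 ± 0.086, an error that treats the genes as independent. Of 5 further genes whose annotated names mark them as copies of ferritin genes, 1 was in a table, Ftl1-ps1, at 1.10 ± 0.41 under HLM006474 with a mean count of 29.3. The likeness of their sequences was not measured here, and how the authors' counting split reads between such genes is not given in the sources used here.

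**Figure D3:**
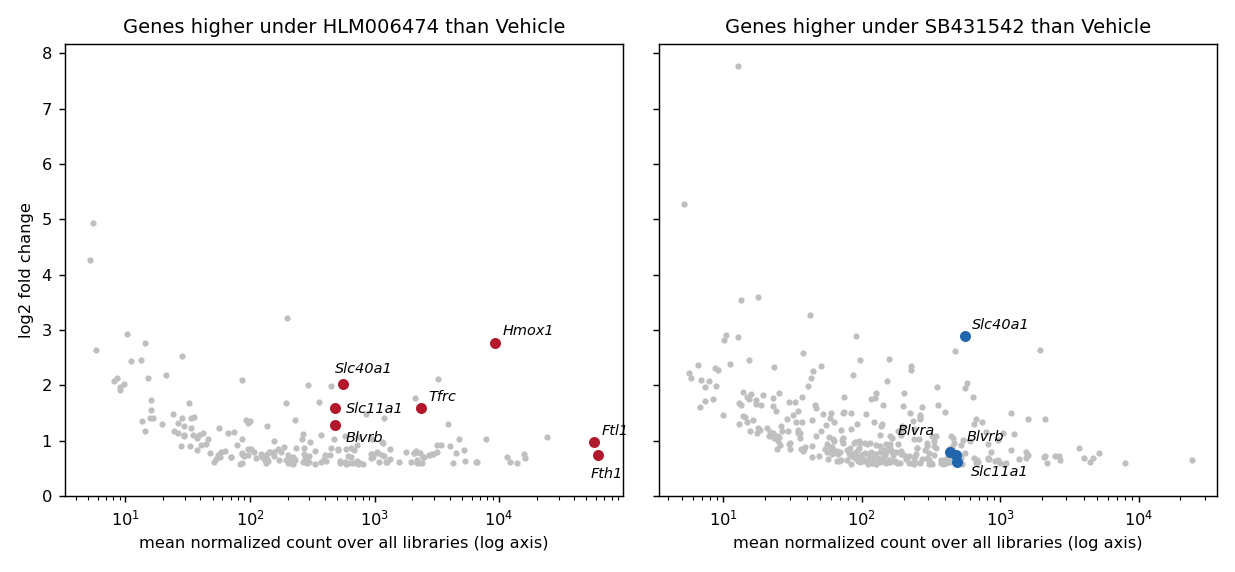
Log2 fold change against the mean normalised count over all libraries (log axis) for every gene listed higher under HLM006474 (left) and SB431542 (right). Grey points are other genes and coloured points the heme and iron genes. Hmox1 stands above all genes of larger count on the left, and Fth1 and Ftl1 lie at the far right, at 61897 and 57910.

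Of the import and transfer genes, Tfrc, the transferrin receptor that brings iron into the cell, stood at 1.59 ± 0.31 under HLM006474 in the authors' deposited table. Its estimated means were 4879 under HLM006474 (range 3965 to 5630) and 1626 in vehicle (1321 to 1876). Slc11a1, a metal transporter of phagosomes and lysosomes in macrophages, stood at 1.60 ± 0.19 under HLM006474 and 0.62 ± 0.19 under SB431542 in the authors' deposited tables. The value for SB431542 was the listed one nearest to the fold limit of 0.58. Its estimated means were 919 under HLM006474, 468 under SB431542 and 304 in vehicle. Slc48a1, which moves heme out of lysosomes, was in no table, and whether it was tested cannot be told from them.

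Slc40a1, the iron exporter ferroportin, was higher under both inhibitors and had the largest fold change of the members under SB431542. It stood at 2.02 ± 0.15 with HLM006474 and 2.90 ± 0.15 with SB431542 in the authors' deposited tables, folds of 4.07 under HLM006474 and 7.45 under SB431542. Its estimated means were 704 under HLM006474 (range 679 to 721), 1289 under SB431542 (1244 to 1320) and 173 in vehicle (167 to 177). By fold it ranked 18 of 216 higher genes under HLM006474 and 7 of 347 under SB431542. Under SB431542 none of the 49 higher genes with a larger mean count had a larger fold. Cp, its ferroxidase partner, was in no table, and none of the other export partners Heph, Hephl1, App and Ndfip1 was listed.

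The 3 genes in both tables allow the inhibitors to be set side by side. The genes were chosen with these values known, so the differences are descriptions without a test. As HLM006474 minus SB431542 on the log2 scale, Slc11a1 differed by 0.97 (95% interval 0.45 to 1.50), Blvrb by 0.54 (0.19 to 0.89) and Slc40a1 by -0.87 (-1.30 to -0.45). Slc11a1 and Blvrb were thus higher under HLM006474 and Slc40a1 higher under SB431542. The intervals treat the comparisons as independent although they share vehicle. No member was in the table of Ro5-3335 and another, so the pairs of HLM006474 and of SB431542 with it hold no such gene.

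Microglia and macrophage markers moved beside these genes. Under HLM006474 4 of 14 were listed, 1 higher and 3 lower, beside 1.42% of all tested genes listed higher and 4.22% lower. The lysozyme gene Lyz2 stood at 1.08 ± 0.18 and Tmem119 at -1.08 ± 0.070 in the authors' deposited table. Under SB431542 7 of 14 were listed, 3 higher and 4 lower, beside 2.29% of all tested genes listed higher and 2.64% lower. In the authors' deposited table the higher ones were Lyz2 (0.65 ± 0.18), Cd68 (0.72 ± 0.075) and Mrc1, the mannose receptor gene (2.64 ± 0.11). In the authors' deposited table the lower ones were C1qa of the complement system (-0.66 ± 0.052), P2ry12 (-1.19 ± 0.17), Cx3cr1, the fractalkine receptor (-2.21 ± 0.081), and Tmem119 (-3.997 ± 0.11). Mrc1, Cd68, Tmem119 and P2ry12 were named for SB431542 after their values were seen. Slc40a1 stood at 2.90 there, in the direction of the 3 higher markers and opposite to that of the 4 lower ones. Under HLM006474 Slc40a1 stood at 2.02 and Mrc1 was not listed. Under Ro5-3335 none of the 14 was listed, beside 2.93% of all tested genes. Their part in the values of Slc11a1, Slc40a1 and Hmox1 was not tested. Under HLM006474 8 of 12 oligodendrocyte lineage markers were also listed, all lower, beside 4.22% of all tested genes listed lower. Of the astrocyte markers Fabp7 stood at -0.64 ± 0.055 under HLM006474 and -0.67 ± 0.055 under Ro5-3335, and Kcnj10 at -0.77 ± 0.037 under SB431542, in the authors' deposited tables. Fewer cells of a type and less RNA per cell cannot be told apart in these bulk samples.

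The genes differed in the spread between libraries that the authors' fit gave them, which is not the observed spread within 1 group. From the standard error and the estimated means an approximate coefficient of variation (CV) between libraries can be solved, which is 1 value for all groups in the authors' fit. For Tfrc it was 27.9%, above all 69 other listed genes within 2-fold of its mean count, whose median was 6.35%. For Hmox1 it was 13.6%, above all 18 such genes, with a median of 4.99%. Slc11a1 had a CV of 16.5%, against a median of 9.83%, and Slc40a1 12.7%, against 9.30%. Listed genes passed a limit on adjusted p, which favours small standard errors. These comparisons can therefore overstate how unusual the spread of a member was among all genes. Ftl1 had the smallest CV of the members, 4.87%, and Fth1 6.04%. Blvrb stood at 10.4% and Blvra at 7.33%. The fold change of Tfrc had the largest standard error, 0.31, of the 7 members listed for HLM006474. Which libraries carried the spread of Tfrc or Hmox1 was not analysed here.

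**Figure D4:**
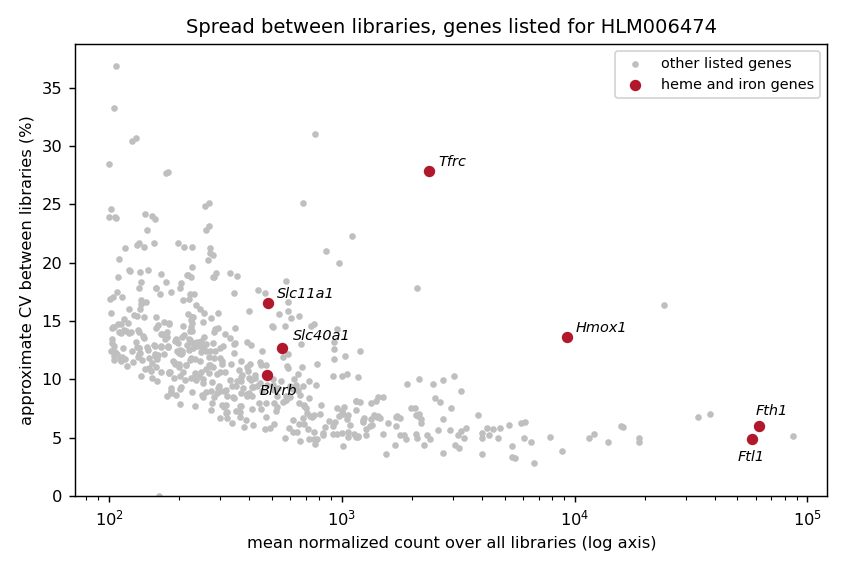
Approximate CV between libraries, in percent, against the mean normalised count over all libraries (log axis) for genes listed for HLM006474 with a mean count above 100. Tfrc at 27.9% and Hmox1 at 13.6% lie above other genes of like count, while Fth1 and Ftl1 lie at 6.04% and 4.87%.

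Other genes of the pathway were counted from lists of their own. Of 97 further heme, iron and ferroptosis genes 5 were listed for HLM006474 (4 higher, 1 lower), 4 for Ro5-3335 (2 higher, 2 lower) and 8 for SB431542 (4 higher, 4 lower). Of all tested genes 5.64% were listed for HLM006474, 2.93% for Ro5-3335 and 4.93% for SB431542. The count for HLM006474 is near that share, and nothing about the pathway is read from these counts. In heme synthesis 1 of 8 genes was listed, Alas1, the first enzyme of the pathway, at 0.95 ± 0.064 under HLM006474 in the authors' deposited table. None of the 4 genes of ferritin turnover and iron chaperones, such as Ncoa4, which delivers ferritin to lysosomes, was in a table. None of the 14 genes of mitochondrial iron and iron-sulfur clusters was in a table, and none of the 12 regulator genes such as Bach1, Nfe2l2 and Keap1. At such small shares, lists this short can hold no listed gene, so nothing is read from their absence.

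Among 15 other genes of iron import and reduction the listed members differed between inhibitors. Scara5, a receptor that takes up ferritin, stood at 0.58 ± 0.13 under Ro5-3335 and at -0.99 ± 0.15 under SB431542 in the authors' deposited tables, on opposite sides of vehicle. Tfr2, the second transferrin receptor, stood at -1.97 ± 0.41 under SB431542 with a mean count of 29.95, and Slc39a8, a zinc and iron importer, at 0.80 ± 0.15 in the authors' deposited table. The ferrireductase gene Steap4 stood at -0.78 ± 0.16 under HLM006474, and Steap1 at -0.80 ± 0.31 under Ro5-3335, in the authors' deposited tables. In heme transport Abcg2, an exporter of heme and drugs, stood at -0.64 ± 0.13 under Ro5-3335, and Flvcr2 at 0.71 ± 0.28 under SB431542, in the authors' deposited tables. Of 13 iron regulators Smad7, an inhibitor of SMAD signalling that also restrains hepcidin in liver, was the 1 listed, at -1.06 ± 0.15 under SB431542 in the authors' deposited table.

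Of 14 ferroptosis related genes, the cystine transporter gene Slc7a11 stood at 1.48 ± 0.23 with HLM006474 and 0.80 ± 0.23 with SB431542 in the authors' deposited tables. Gclm and Gclc, the subunits of the enzyme that starts glutathione synthesis, stood at 1.31 ± 0.078 and 0.92 ± 0.049 under HLM006474 in the authors' deposited table. Under SB431542 Chac1, which degrades glutathione, stood at 0.63 ± 0.24 and the prion protein gene Prnp at -1.01 ± 0.034 in the authors' deposited table. Under Ro5-3335 Sat1, which acetylates polyamines, stood at 0.60 ± 0.055 in the authors' deposited table.

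**Figure D5:**
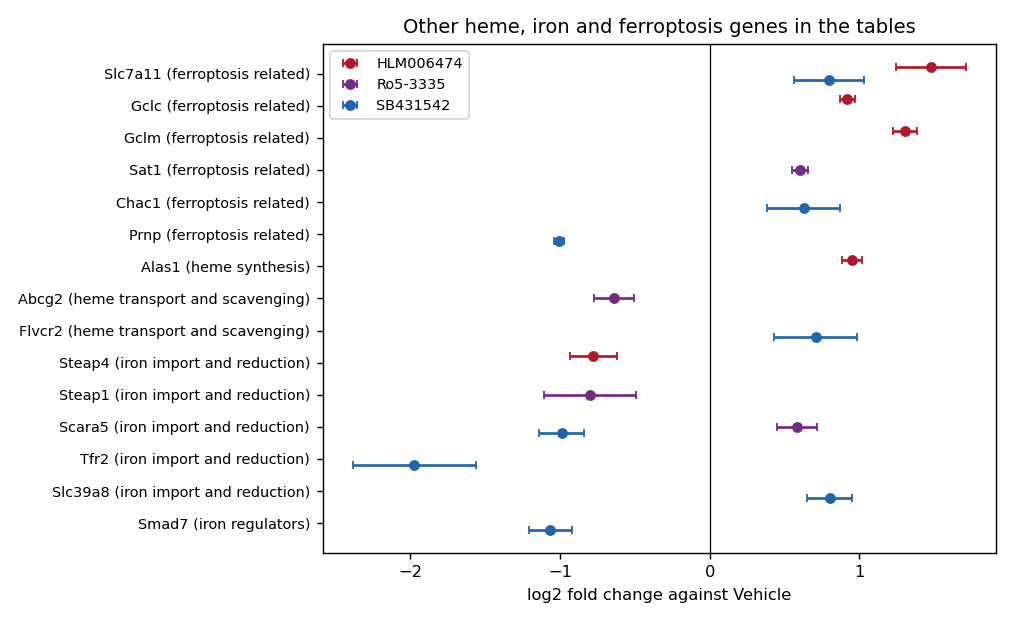
Log2 fold change against vehicle, with the authors' standard error, of the 15 further heme, iron and ferroptosis genes that were in a table, coloured by inhibitor. Scara5 lies on opposite sides of 0 under Ro5-3335 and SB431542, and Slc7a11 above 0 under HLM006474 and SB431542.

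Likeness of pattern was measured as the distance between log2 fold changes over the pair of inhibitors, among the 104 genes listed for HLM006474 and SB431542 and not for Ro5-3335. Nearest to Blvrb were Slc7a11 (distance 0.21), Lyz2 (0.22), Slc11a1 (0.34), Lipa (0.37), the lysosomal acid lipase, and Atf3 (0.37), a stress transcription factor. Nearest to Slc11a1 were Slc7a11 (0.21), Blvrb (0.34), Lyz2 (0.52), Atf3 (0.69) and Lipa (0.69). For Slc40a1 the nearest were Adh7 (0.45) and A530064D06Rik (0.66), with mean counts of 15.2 and 11.2, then the macrophage metalloprotease gene Mmp12 (0.71), Wfdc17 (0.84) and the chemokine gene Ccl9 (1.04). No gene lay as near to Slc40a1 as 5 genes lay to Blvrb.

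Promoter windows of RefSeq (GRCm38.p6, 250 bases before to 50 after a start) were given for 7 of the 10 members, 11 windows in all, and not for Hmox1, Slc40a1 and Slc48a1. Motifs were searched on both strands. The antioxidant response element core TGACNNNGC was in 1 of the 11 windows, that of Blvra, and in 12.4% of 32851 windows of all genes. The RUNX motif TGTGGT was in 2, those of Blvra and of a downstream start of Blvrb, and in 16.8% of all windows. The E2F motifs TTTCCCGC or TTTGGCGC were in 1, that of Blvra, and in 1.56% of all windows. Neither the SMAD palindrome GTCTAGAC (0.213% of all windows) nor the E-box CACGTG (7.15%) was in any member's window. The Blvra window is shown because it alone held 3 of the 5 motif kinds, with the matches in capitals: an E2F match from -162 to -155 on the gene's strand, and a RUNX match from -130 to -125 and an antioxidant response element match from -49 to -41 on the other strand. The matches do not overlap. The share of all windows that hold 3 motif kinds was not counted, so nothing is read from their joint presence. The bases before the start lie at chr2:127070407-127070656 (plus strand).
Blvra: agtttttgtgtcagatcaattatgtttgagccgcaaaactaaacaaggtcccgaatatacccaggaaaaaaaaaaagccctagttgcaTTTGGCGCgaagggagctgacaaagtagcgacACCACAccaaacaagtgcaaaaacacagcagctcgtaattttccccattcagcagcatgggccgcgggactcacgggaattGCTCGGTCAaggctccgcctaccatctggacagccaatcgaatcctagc
Blvra was outside the tables of HLM006474 and Ro5-3335 and higher under SB431542. No binding was measured in these data.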

How the data were processed

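RNA sequencing of 13 libraries from mouse astrocyte cultures was used, and how many separate cultures they came from is not stated. Reads were processed with CASAVA 1.8, STAR 2.7 and DESeq2 1.30.1 on GRCm38, per the submitters' processing notes, and for the counter, the annotation and the strandedness nothing is given in the sources used here. The authors' deposited tables give, per the file headers, a mean normalised count (a signal averaged over libraries), a log2 fold change and its error on that scale, a Wald score, which is their quotient, and a p-value with its adjusted p-value. Mean counts agree across tables for 350 of 351 shared gene names, the exception being Nadk2, which has 2 rows for HLM006474, so all groups appear to enter 1 fit.

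The number of genes tested was solved from the ratio of p to adjusted p. It is the number that makes most ranks whole within 0.02 (81.1% for HLM006474, 83.6% for Ro5-3335, 80.5% for SB431542). This step was tested on simulated data. For group means and CV the simulation only inverted the formulas that made its input, so that check could not fail and gives no error for those estimates. It did not cover the assumption of no change outside a table. Groups are those of the sample titles. No new test per gene was made, since the tables were chosen by the authors' limits. All 10 members are named, with every listed gene of the 97 further genes, the 5 nearest genes of members in 2 tables, and up to 3 markers a list, beside 4 named after their values were seen. The members and lists were chosen with earlier results of these data known. The bounds outside a table, the CV and the hairpin search were added after seeing the data. Python 3.11.15, pandas 2.3.3, numpy 2.4.6 and matplotlib 3.10.9 were used. Depth per library is unknown here, so no counting interval is given. Alternatives were stricter limits on adjusted p, fold and mean count.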

Additional observations from a re-analysis of the deposited data

How the results depend on the processing

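With a limit of 0.01 on adjusted p, or of 100 on the mean count, the members listed stayed 7 for HLM006474, 0 for Ro5-3335 and 4 for SB431542. With an absolute log2 fold change of at least 1, they were 5 for HLM006474 and 1 for SB431542, which was Slc40a1. That limit left 2 of the 5 further genes for HLM006474, 0 of 4 for Ro5-3335 and 3 of 8 for SB431542. A mean count of at least 100 left 5 of the 8 for SB431542. Without the ferroptosis list, an alternative chosen after seeing the data, 2 remained for HLM006474 and 5 for SB431542. With the covariance of shared vehicle, the standard errors of the differences between inhibitors fell to 0.13 for Blvrb, 0.20 for Slc11a1 and 0.16 for Slc40a1. The estimated vehicle means of Blvra, Fth1 and Ftl1 moved by more than their spread between libraries when unlisted fold changes were set at their limits, and those of the other 5 genes did not. Without G-T pairs in the arms 6 of the 7 hairpins remained, the second of Tfrc being lost. The CV from the HLM006474 table over that from the SB431542 table had a median of 1.00 (5th to 95th percentile 0.992 to 1.01) in 108 genes with a mean count above 100. Other normalizations and count filters were not run, since the tables hold no counts per sample. No paired analysis was possible because the tables hold no values per sample, and no library could be left out for the same reason. Depth is unknown from these tables, and genes outside them have no value here.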
